A study of Homo sapiens with 2 samples.

Results

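Cadherins are calcium-dependent adhesion proteins that hold neighbouring cells together through repeated extracellular domains. Type I and type II cadherins bind catenins through their tails and so link the cell surface to actin. Protocadherins carry similar repeats but other tails. Most of them are encoded in 3 neighbouring gene clusters on chromosome 5, called PCDHA, PCDHB and PCDHG, from which neurons choose their own combinations. A shift from E-cadherin (CDH1) to N-cadherin (CDH2) is a textbook mark of epithelial cells taking on mesenchymal traits. MYOCD encodes myocardin, a coactivator that works through SRF in muscle cells of vessels and the heart.

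The genes described are 100 members of the cadherin superfamily, taken by symbol from 56255 gene symbols of the deposited table: the numbered CDH, CDHR, PCDH, PCDHA, PCDHB and PCDHG genes, FAT1 to FAT4, DCHS1, DCHS2 and CELSR1 to CELSR3. The rule itself uses symbols and no expression value, though it was set with earlier results of these data known. No member symbol stood on more than 1 line of the table. Total RNA came from A549, an established human lung adenocarcinoma cell line grown in DMEM with serum. One library was wild-type A549 without treatment (WT) and the other was A549 overexpressing MYOCD (MYOCD). The sources used here do not give the vector, the selection, whether the cells were 1 clone, or a vector-only control. With 1 library in each group there is no replicate error and no test, so every difference below compares 2 libraries. The RNA is from bulk cultures, in which fewer cells expressing a gene and less RNA per cell cannot be told apart.

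The MYOCD transcript stood at 0.304 RPKM (reads scaled to gene model length and library size) in WT and 48.6 RPKM in MYOCD, in the direction of the labels. Among marker genes, 5 of 5 epithelial genes (CDH1, itself a member, among them) reached 1 RPKM in a library, against 0 of 6 endothelial, 0 of 6 fibroblast and 0 of 4 lung lineage genes. The epithelial genes together stood at 3209 RPKM in WT against 2234 in MYOCD, a fall that came from KRT8 (1523 and 1059) and KRT18 (1647 and 1134). KRT19 (2.94 and 3.24 RPKM) and CDH1 were slightly higher in MYOCD, and EPCAM (0.889 and 2.57) reached 1 RPKM there alone. The surfactant gene SFTPC was listed at 0 in both libraries and the lung transcription factor gene NKX2-1 at 0.0812 and 0 RPKM. Of 5 neural markers 3 reached 1 RPKM, with a summed level of 20.2 RPKM in WT against 9.95 in MYOCD. That fall came from RBFOX3 (14.2 and 3.49 RPKM), while GFAP stood at 3.46 and 4.33 and SYP at 2.17 and 1.95.

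The clustered protocadherins have promoters with a common element, shown here because most members of the clusters were lower in MYOCD. Of the 100 members, 75 had at least 1 promoter window in the RefSeq table (GRCh38.p14), running from 250 bases before to 50 bases after the start. In each cluster the commonest run of 8 bases on either strand was searched for. It was ATGTCGCT in 9 of 11 PCDHA windows, GTGGCGCT in 13 of 14 PCDHB windows and GCCGCTGT in 11 of 20 PCDHG windows. Over all 27305 genes with a window, the same runs were found in 0.245%, 1.18% and 1.60%, and 0 windows of any cluster held the run of another. Each run was picked for its high share in its own cluster, so the contrast with all genes was fixed by that choice. Whether the runs bear on the values in MYOCD was not tested. The letters CGCT, taken from the runs so picked, are common to the 3 runs. On either strand these 4 letters occur in 98% of the 50 clustered windows, in 81.8% of the other members' windows and in 70.01% of all windows. Stretches of 60 bases are given below for the most abundant members with a window of each cluster and for PCDHB3, one of the few members not lower in MYOCD. They lie on the plus strand and read 5′ to 3′, with the shared run in capitals.
PCDHA12, chr5:140875230-140875289: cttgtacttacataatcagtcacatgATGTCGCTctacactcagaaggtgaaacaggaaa
PCDHA4, chr5:140806965-140807024: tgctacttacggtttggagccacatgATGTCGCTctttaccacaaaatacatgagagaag
PCDHB2, chr5:141094530-141094589: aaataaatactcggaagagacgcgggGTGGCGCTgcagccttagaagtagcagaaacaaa
PCDHB5, chr5:141135165-141135224: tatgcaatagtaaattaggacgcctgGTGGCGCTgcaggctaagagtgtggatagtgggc
PCDHB3, chr5:141100379-141100438: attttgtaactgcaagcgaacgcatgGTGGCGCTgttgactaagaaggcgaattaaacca
PCDHGC3, chr5:141475868-141475927: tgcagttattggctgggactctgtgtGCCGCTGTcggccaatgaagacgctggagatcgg
PCDHGB5, chr5:141397851-141397910: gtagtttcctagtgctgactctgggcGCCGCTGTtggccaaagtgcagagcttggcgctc
PCDHGA7, chr5:141382637-141382696: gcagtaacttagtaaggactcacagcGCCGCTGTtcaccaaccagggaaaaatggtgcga

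The run began 52 bases before the RefSeq start in PCDHA12, 59 in PCDHB2, 15 in PCDHB5 and 72 in PCDHGC3. The PCDHB window without it was that of PCDHB1, the PCDHA windows without it were those of PCDHA9 and PCDHA11, and 9 PCDHG windows lacked it. A match is a description of these letters and not evidence of binding. The CArG box, the SRF site, was searched on both strands and occurred in 2 of 50 clustered windows, in 0 of 44 windows of the other members and in 1.29% of all windows. The E-box CAGGTG, read by the SNAI and ZEB repressors, was found in 10% of the clustered windows and 13.6% of the other members' windows, against 20.6% of all. CDH1 and CDH11 are among the 25 members with no window in the table, so these shares leave them out. CCCTC, letters found within many CTCF sites, was in 28% of the clustered windows and 77.3% of the other members' windows, against 71.2% of all.

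Of the 100 members, 28 reached 1 RPKM in at least 1 library. Changes were computed as log2((MYOCD + 0.5)/(WT + 0.5)), and a gene at or beyond 2-fold on that scale was counted. By this rule of size 2 members were higher in MYOCD (7.14% of the 28, where 5.42% of all 17350 genes past the same filter were higher) and 3 were lower (10.7%, against 6.35%). Either way 11.8% of all genes past the filter were called. Among the 12337 protein-coding genes past it, 3.02% were higher, 3.1% were lower and 6.11% were called either way. The median change of the 28 was -0.35, beside -0.00 over all genes. It depended on the low members: it was -0.13 with a mean of at least 1 RPKM, 0.033 for the 5 members that reached 5 RPKM and -0.12 for the 17 members outside the clusters. The 2 higher members were CDH2 and CDH11, both cadherins that bind catenins, and the 3 lower were the clustered protocadherins PCDHB5, PCDHB2 and PCDHA12. These counts rest on 5 genes. The 3 lower calls were lost with a pseudocount of 1 RPKM, while CDH2 and CDH11 kept theirs.

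**Figure D1:**
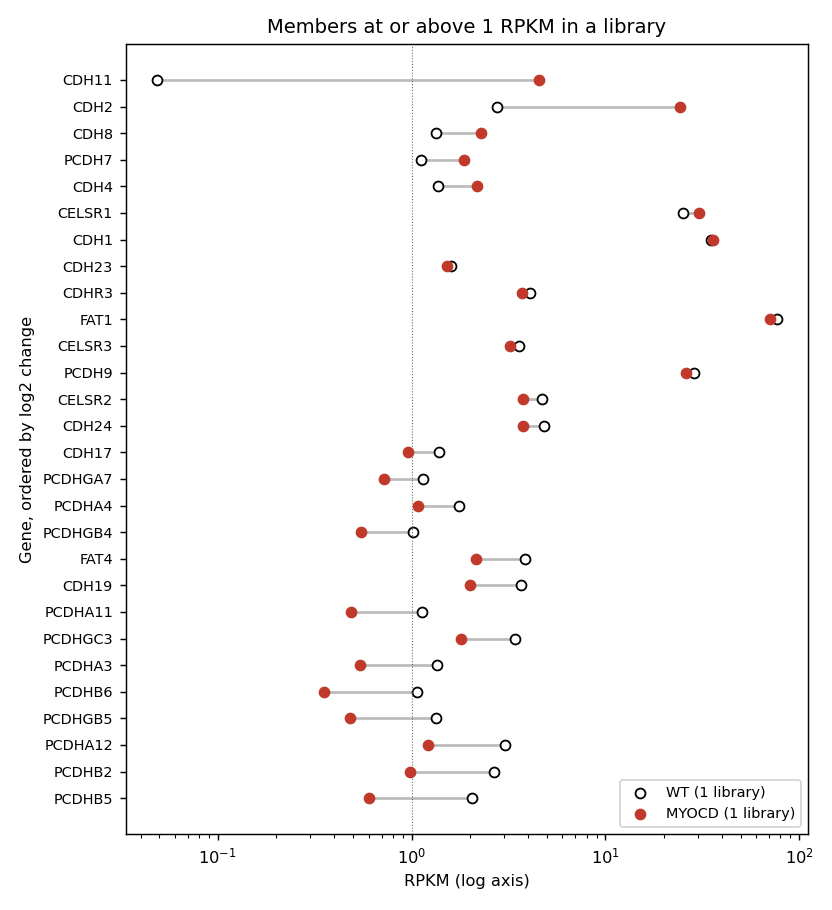
Deposited RPKM on a log axis of the 28 cadherin superfamily genes that reached 1 RPKM in a library, ordered by log2 change. Open circles are the WT library, red circles the MYOCD library and the dotted line marks 1 RPKM. CDH11 and CDH2 stand apart at the top with MYOCD far to the right, and the lower end is held mostly by clustered protocadherins with MYOCD to the left.

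Type I cadherins are the main adhesion molecules of cell junctions. CDH1 (E-cadherin, chromosome 16 from 68737225 to 68835548 of GRCh38, plus strand) was at 35.01 RPKM in WT against 35.8 in MYOCD, a log2 change of 0.03. CDH2 (N-cadherin, chromosome 18 from 27950966 to 28177446, minus strand) stood at 2.76 RPKM in WT against 24.3 in MYOCD. That is a ratio of 8.82 between the deposited values and a log2 change of 2.93. CDH1 thus had 12.7 times the RPKM of CDH2 in WT and 1.47 times in MYOCD, with E-cadherin still the more abundant per length. CDH4 (R-cadherin), the closest relative of CDH2, stood at 1.37 and 2.18 RPKM, under 2-fold. CDH3 (P-cadherin) at 0.835 and 0.978 RPKM and CDH15 (M-cadherin, known from muscle) at 0.205 and 0.0981 did not reach 1 RPKM. An antisense gene, AC110015.1, overlaps 136 bases of the CDH2 exons, and the sources used here do not say whether counting used strand.

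Type II cadherins share the catenin-binding tail but adhere among themselves. CDH11 (chromosome 16 from 64943753 to 65126112, minus strand), which marks mesenchymal cells, stood at 0.0485 RPKM in WT against 4.56 in MYOCD. Its log2 change of 3.21 was above that of CDH2, but it depended on the pseudocount because of the low WT value. It was 4.97 with 0.1 RPKM and 2.41 with 1 RPKM, where CDH2, at 2.75, was the higher. CDH8 stood at 1.34 and 2.28 RPKM, CDH19 at 3.67 and 2.01 and CDH24 at 4.85 and 3.78, all under 2-fold. The other 9 type II members lay between 0 and 0.286 RPKM in WT and between 0 and 0.197 in MYOCD, among them the endothelial cadherin CDH5, listed at 0 in both. Fibroblast markers stayed low in both libraries: DCN and FAP were listed at 0 in both libraries and COL1A2 at 0 and 0.1745 RPKM. COL3A1 (0.109 and 0.138 RPKM) and LUM (0.191 and 0.241) were also higher in MYOCD, and PDGFRB (0.432 and 0.00968) was lower. The 6 together stood at 0.732 and 0.564 RPKM, a fall that came from PDGFRB. The summed RPKM of the 23 numbered CDH genes was 54.2 in WT against 79.1 in MYOCD. CDH1 made up 64.6% of that sum in WT and 45.3% in MYOCD, CDH2 5.08% and 30.7%, and CDH11 0.0893% and 5.76%.

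The other numbered CDH genes and the CDHR genes stood lower or close to WT. CDH17, the liver and intestine cadherin, stood at 1.39 RPKM in WT against 0.959 in MYOCD. CDH13 (T-cadherin, held by a lipid anchor), CDH16 and CDH26 stayed between 0.1198 and 0.394 RPKM in WT and between 0 and 0.134 in MYOCD. CDH23, a tip-link protein of hair cells, stood at 1.60 and 1.52 RPKM. CDHR3, an airway protein used by rhinovirus C as its receptor, stood at 4.08 and 3.72. The remaining 4 CDHR genes lay between 0.0751 and 0.921 RPKM in WT and between 0 and 0.845 in MYOCD. The overlap of 3505 exon bases of CDH23 with C10orf105 on the other strand leaves its value uncertain.

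The large cadherins of tissue polarity ranged widely in level, with FAT1 and CELSR1 abundant and 4 of the 9 under 1 RPKM in both libraries. FAT1, a receptor that restrains growth and shapes actin, stood at 77.05 RPKM in WT against 70.7 in MYOCD, the highest member value in both libraries. FAT4, which pairs with Dachsous proteins, stood at 3.85 and 2.15 RPKM, a log2 change of -0.71. FAT2, FAT3, DCHS1 and DCHS2 lay between 0.00576 and 0.888 RPKM in WT and between 0.0302 and 0.861 in MYOCD. The CELSR genes encode adhesion receptors of planar cell polarity: CELSR1 stood at 25.2 and 30.3 RPKM, CELSR2 at 4.70 and 3.75 and CELSR3 at 3.59 and 3.24. None of these 9 genes past or under the filter reached 2-fold on the log2 scale with the pseudocount. By the deposited values DCHS2 (0.00576 and 0.0668 RPKM) and DCHS1 (0.0128 and 0.0302) had ratios of 11.6 and 2.36 in favour of MYOCD. How many reads stand behind such low values is unknown.

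Protocadherins encoded by single genes outside the clusters did not share a direction. PCDH9 stood at 28.6 RPKM in WT against 25.9 in MYOCD, and PCDH7 at 1.11 and 1.87. The other 9 lay between 0 and 0.499 RPKM in WT and between 0 and 0.556 in MYOCD. Among them PCDH10 stood at 0.0240 and 0.346 RPKM and PCDH1 at 0.499 and 0.218, named after their values had been seen. PCDH8 was listed at 0 in both libraries.

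The clustered protocadherins, 52 of the members, were lower in MYOCD in 48 cases and higher in 4 when any difference of the deposited values was counted and no filter applied. This was 92.3% of them, where 51.2% of the protein-coding genes that were not 0 in both libraries were lower. The ratio of WT to MYOCD was 2 or more in 31 of the 52 (59.6%), against 12.5% of those protein-coding genes. The median ratio of WT to MYOCD over the 48 members above 0 in both libraries was 2.57, beside 1.002 over protein-coding genes. Of the 48 members outside the clusters, 27 were lower, 17 were higher and 4 were listed at 0 in both, with a median ratio of 1.07. Low genes have a wider spread, so the shares were also read by level. Depth is unknown, and how many reads stand behind the lowest values could not be recovered. Of 41 clustered members under 1 RPKM in both libraries 37 were lower (90.2%, against 56.2% of protein-coding genes in that range) and 24 had a ratio of 2 or more (58.5%, against 35.7%). Over genes of any type in that range the same shares were 52.9% and 34.8%. The other 11, which reached 1 RPKM in WT, were all lower, and 7 of them (63.6%) had a ratio of 2 or more. Among protein-coding genes whose higher value was between 1 and 5 RPKM, 50.6% were lower and 12.2% had such a ratio. PCDHA12, PCDHA4 and PCDHGC3 reached 1 RPKM in both libraries. The other 8 passed the filter through WT alone and so had to be lower. That selection also favours high ratios of WT to MYOCD, while the comparison genes could pass through either library. Neither the direction nor the ratio share of the 11 is therefore support.

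**Figure D2:**
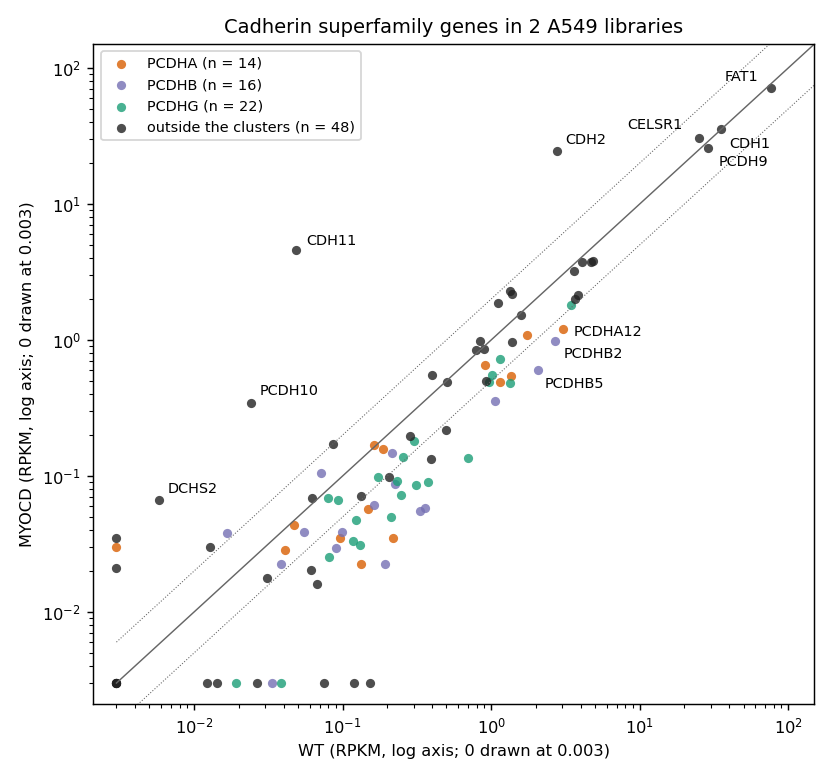
Deposited RPKM of the 100 genes in WT (horizontal) and MYOCD (vertical), both on log axes, with values of 0 drawn at the edge. The solid line marks equal values and the dotted lines a ratio of 2. Most of the 14 PCDHA, 16 PCDHB and 22 PCDHG genes lie under the solid line, while CDH2 and CDH11 lie far above it and FAT1, CDH1, PCDH9 and CELSR1 close to it.

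In the PCDHB cluster each gene is 1 exon block. PCDHB2 (chromosome 5 from 141094578 to 141098703, plus strand) stood at 2.67 RPKM in WT against 0.978 in MYOCD, a log2 change of -1.10. PCDHB5 (141135218 to 141138625) stood at 2.05 and 0.603 RPKM, a log2 change of -1.21. PCDHB6 stood at 1.06 and 0.355 RPKM, a ratio of 2.99 that fell short of 2-fold once the pseudocount was added (-0.87). These 3 genes held 75.4% of the summed RPKM of the cluster in WT and 73.3% in MYOCD. The other 13 lay between 0.0167 and 0.356 RPKM in WT, with a median of 0.0994, and between 0 and 0.148 in MYOCD, with a median of 0.0386. In all, 14 of 16 were lower and 11 had a ratio of 2 or more. Of the 13 under 1 RPKM in both libraries, 11 were lower and 8 had such a ratio. Among protein-coding genes in that range the shares were 56.2% and 35.7%. PCDHB1 (0.0167 and 0.0378 RPKM) and PCDHB3 (0.0716 and 0.105) were higher. PCDHB3 carries the shared promoter run and PCDHB1 does not. The summed RPKM of the 16 was 7.68 in WT against 2.64 in MYOCD.

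In the PCDHA cluster, variable first exons are joined to common last exons. PCDHA12 (140875302 to 141012344) stood at 3.04 RPKM in WT against 1.21 in MYOCD, a log2 change of -1.05. PCDHA4 stood at 1.75 and 1.08 RPKM, PCDHA3 at 1.36 and 0.540 and PCDHA11 at 1.14 and 0.487. The remaining 10 lay between 0 and 0.907 RPKM in WT and between 0.0224 and 0.657 in MYOCD. PCDHA2 (0.162 and 0.169 RPKM) and the pseudogene PCDHA14 (0 and 0.0299) were the 2 of 14 not lower in MYOCD. In all, 7 of the 14 had a ratio of 2 or more. Of the 10 under 1 RPKM in both libraries, 8 were lower and 4 had such a ratio. Among protein-coding genes in that range the shares were 56.2% and 35.7%. The summed RPKM of the 14 was 9.23 in WT against 4.55 in MYOCD.

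In the PCDHG cluster 22 of 22 genes were lower in MYOCD, 13 with a ratio of 2 or more. PCDHGC3 stood at 3.42 RPKM in WT against 1.81 in MYOCD, PCDHGB5 at 1.33 and 0.484, PCDHGA7 at 1.14 and 0.721 and PCDHGB4 at 1.01 and 0.548, and 0 of these 4 reached 2-fold with the pseudocount. The other 18 lay between 0.0190 and 0.971 RPKM in WT and between 0 and 0.487 in MYOCD. Of these 18, 18 were lower and 12 had a ratio of 2 or more. Among protein-coding genes under 1 RPKM in both libraries the shares were 56.2% and 35.7%. The median ratio of WT to MYOCD was 2.58 over PCDHGA genes and 2.76 over PCDHGB genes above 0 in both libraries. PCDHGC3 and PCDHGC4, of the C type, had ratios of 1.90 and 1.83. The summed RPKM of the 22 was 11.4 in WT against 5.26 in MYOCD.

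Genes of the clusters are not independent of each other in this table. Between 21.3% and 56.6% of the exon length of a protein-coding PCDHA gene is shared with other genes on the same strand. The pseudogene PCDHA14 shares 100%, all of it with PCDHA10. For PCDHG genes the share is between 27.6% and 64.4%. The sources used here do not say how reads from common exons were assigned. PCDHB genes share at most 9.43% of their exon length. Among the 11 PCDHB genes that share no exon bases on their strand, 9 were lower and 7 had a ratio of 2 or more. Of these, PCDHB2, PCDHB5 and PCDHB6 passed the filter through WT alone and so had to be lower. Of the other 8, all under 1 RPKM in both libraries, 6 were lower and 4 had a ratio of 2 or more. Among protein-coding genes in that range the shares were 56.2% and 35.7%, and 8 genes are too few to set against them. PCDHB genes are close paralogs, so reads can still be exchanged between them. Antisense genes overlap several members, for example 620 bases of PCDHB2 and 501 of PCDHB5, and 5 of the 7 antisense genes inside the clusters with a value above 0 were lower in MYOCD too. The neural marker RBFOX3 moved the same way (14.2 and 3.49 RPKM), while GFAP (3.46 and 4.33) and SYP (2.17 and 1.95) stayed closer to WT. The part of any of these in the cluster values was not tested.

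Genes next to the clusters were mostly under 2-fold, as were most genes past the filter. The clusters span 727 kb of chromosome 5, from 140786136 to 141512981, and 29 protein-coding genes that encode no cadherin or protocadherin lie between or within 500 kb of them. PCDHAC1, PCDHAC2, PCDH1 and PCDH12 also lie there and are given with their own groups. Of the 26 that reached 1 RPKM, 0 were lower by 2-fold with the pseudocount and 1, FCHSD1 (3.06 and 8.47 RPKM), was higher. Over all protein-coding genes past the filter 3.1% were lower and 3.02% were higher, so few calls would be found in any 26 of them. TAF7, a transcription factor subunit gene between PCDHB and PCDHG, stood at 43.3 RPKM in WT against 34.7 in MYOCD. ZMAT2, the last of them before PCDHA1, stood at 41.4 and 40.5, and DIAPH1, the first after PCDHGC5, at 42.1 and 41.04. By any amount 18 of the 26 were lower and 8 were higher, where 51.2% of protein-coding genes not 0 in both libraries were lower. That share is over genes of any level, with no filter. Their median ratio of WT to MYOCD was 1.03, and EIF4EBP3 (1.04 and 0.292 RPKM), which shares exons with ANKHD1-EIF4EBP3, was the 1 gene with a ratio of 2 or more in favour of WT. FCHSD1 and ANKHD1-EIF4EBP3 (3.28 and 6.71 RPKM) had such a ratio in favour of MYOCD. Most of these neighbours are far more abundant than the protocadherins: 21 of the 26 reached 5 RPKM, and 0 clustered members did. PCDHAC2, a gene of the PCDHA cluster that the rule leaves out, stood at 7.15 RPKM in WT.

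**Figure D3:**
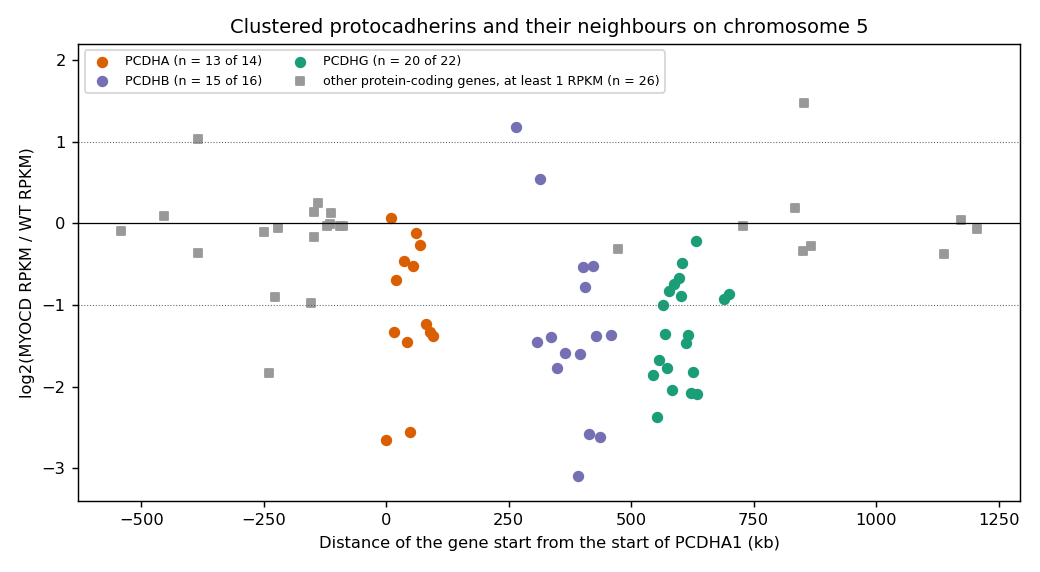
The log2 ratio of deposited MYOCD to WT RPKM, with no pseudocount, against the distance of each gene's start from that of PCDHA1, for the 48 clustered genes above 0 in both libraries and for 26 neighbouring protein-coding genes at or above 1 RPKM. Dotted lines mark a ratio of 2. The coloured points of the 3 clusters lie mostly below 0, and most grey squares of the neighbours lie near 0.

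Partners of the cadherins were followed in 6 lists of 62 genes in all, of which 51 reached 1 RPKM. By the 2-fold rule 2 of the 51 were higher and 3 were lower, and their median log2 change was 0.02. Among genes of any type at that level the shares were 5.42% and 6.35%. Among protein-coding genes at that level the shares were 3.02% and 3.1%. At such shares few calls would be found in any 51 genes, and a short list with 0 calls says little. Among 12 catenins and other tail partners, JUP (plakoglobin) stood at 74.8 RPKM in WT against 22.01 in MYOCD. PLEKHA7, which ties p120-catenin to microtubules, stood at 6.14 and 14.9 RPKM, and its microtubule-anchoring partner CAMSAP3 at 0.728 and 2.73. The 3 most abundant of the list, alpha-catenin CTNNA1 (140.1 and 132 RPKM), vinculin VCL (81.6 and 107.7) and beta-catenin CTNNB1 (86.02 and 94.5), were under 2-fold. Nectins and afadin, which start new junctions, had 0 of 4 at 2-fold, with NECTIN2 at 50.7 and 48.2 RPKM, NECTIN3 at 24.9 and 33.9 and AFDN at 24.1 and 25.1. Shedding and turnover genes had 0 of 6, with RAB11A at 178.8 and 178.9 RPKM, the protease ADAM10 at 189.7 and 155 and NUMB at 41.3 and 36.9.

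Of 10 partners of FAT, Dachsous and CELSR proteins 0 were called, and their median log2 change was 0.36. The signal transducers DVL1 (17.7 and 35.1 RPKM) and DVL2 (22.5 and 29.01) and the kinase FJX1 (15.0 and 14.5) were the most abundant. The polarity genes PRICKLE1 (1.47 and 3.30 RPKM) and PRICKLE2 (3.31 and 6.84) had log2 changes of 0.95 each, and DVL1 had 0.97, just under 2-fold. Both PRICKLE genes passed 2-fold with a pseudocount of 0.1 RPKM, and the 3 genes did when 11 steady reference genes were set to a median change of 0. Of 12 protocadherin tail partners and cluster regulators 0 were called: the focal adhesion kinase PTK2 stood at 104 and 115 RPKM, the actin regulator NCKAP1 at 94.8 and 89.4 and the cohesin subunit RAD21 at 77.96 and 69.9. PTK2B, a kinase related to PTK2, stood at 9.69 and 4.63 RPKM (log2 change -0.99) and was lower by 2-fold with a pseudocount of 0.1 RPKM. CTCF, the factor that organises the clusters, stood at 24.4 and 20.9 RPKM, and SMCHD1, known to silence them, at 31.1 and 27.2. Other genes with cadherin domains had 7 of 14 past the filter. PCDHAC2 (7.15 and 1.46 RPKM), the last variable exon gene of the PCDHA cluster, and the desmosomal cadherin DSC3 (2.34 and 0.768) were lower by 2-fold, the latter not with a pseudocount of 1 RPKM. PCDHAC1 stood at 3.60 and 1.61 RPKM, lower by 2-fold with a pseudocount of 0.1 RPKM, DSG2 at 29.1 and 36.2, CLSTN1 at 28.9 and 35.8 and CLSTN3 at 24.3 and 21.8.

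**Figure D4:**
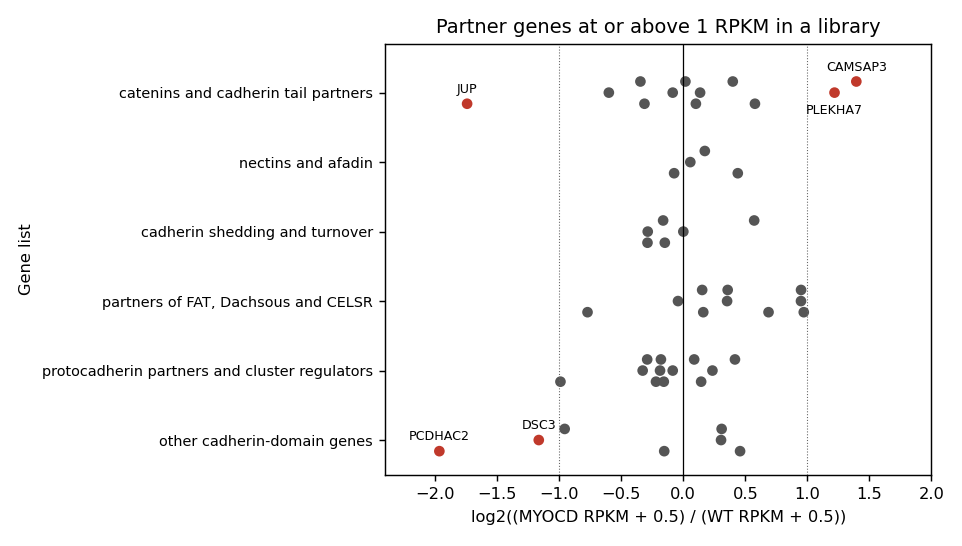
The log2 change with a pseudocount of 0.5 RPKM of the partner genes at or above 1 RPKM in a library, 1 point a gene, in 6 lists. Dotted lines mark 2-fold, and genes at or beyond it are red and named: JUP, PCDHAC2 and DSC3 lower in MYOCD, PLEKHA7 and CAMSAP3 higher.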

How the data were processed

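Members and gene lists were chosen with earlier results of these data known. The authors deposited 1 table of RPKM values for 57979 gene rows, with 1 column for each library, per the file headers. The submitters' processing notes name Bowtie 0.12.2 and the builds mm8 and GRCh38.p12 with no roles. The sources used here name no counting tool, annotation or use of strand. RPKM holds no counts. In gene models with 1 transcript of at least 2500 nt, RPKM times length in kb was commonest between 0.05 and 0.06 in WT and between 0.06 and 0.07 in MYOCD among low values. At the step picked to give the highest share, low values lay within 0.1 of a whole multiple in 29.5% and 29.9% of cases. Chance gives 20% for a step fixed in advance and more for a step picked this way. Whole reads were therefore not recovered, depth is unknown and no counting interval or count test was made.

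Log2 changes used a pseudocount of 0.5 RPKM, which understates changes of low genes, and genes at or above 1 RPKM in a library. Calls at 2-fold are a rule of size. The simulated data on which the rule was tried held changes far beyond 2-fold in genes of at least 5 RPKM in WT. They do not show how the rule behaves near 2-fold or at the lower WT levels of the called members. Where any difference or a ratio is counted, deposited values were used with no pseudocount. Named genes were the members past the filter, partner genes at or beyond 2-fold, the 3 most abundant of each partner list and MYOCD. Others, and the promoter runs, neighbours and counts without a filter, were chosen after values were seen. Positions and exons came from GENCODE release 29 (GRCh38), which held all 100 members, and promoters from RefSeq. Python 3.11.15, pandas 2.3.3 and numpy 2.4.6 were used.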

Additional observations from a re-analysis of the deposited data

How the results depend on the processing

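No paired analysis was possible because each group has 1 library. Scaling to the same summed RPKM, the same without mitochondrial genes, or a trimmed mean moved the median of all genes by less than 0.1 on the log2 scale, as did setting 11 steady reference genes to 0. The count of members higher by 2-fold was 2 under every alternative tried but an RPKM of at least 5, which left CDH2 alone (1), and calls at 1.5-fold (3). The count of lower members was 7 with a pseudocount of 0.1 RPKM, 0 with 1 RPKM, 0 with at least 5 RPKM, 0 outside the clusters and 10 at 1.5-fold. It was 2 with the reference genes at 0, which took PCDHA12 under 2-fold. The median log2 change of the members was -0.42 with 0.1 RPKM, -0.29 with 1 RPKM, -0.15 without a filter, -0.13 with a mean of at least 1 RPKM, -0.34 with the same summed RPKM, -0.24 with the reference genes at 0, and 0.033 with at least 5 RPKM, which kept 5 members and no clustered one. Partner genes higher by 2-fold numbered 4 with 0.1 RPKM, 1 with at least 5 RPKM and 5 with the reference genes at 0, and lower ones 5 with 0.1 RPKM. Clustered protocadherins lower in MYOCD numbered 48 of 52, with 31 at a ratio of 2 or more, under all 4 scalings, added after seeing the data. CDH23 changed sign with the reference genes at 0 (0.01). Most clustered members lie under 1 RPKM, where the number of reads behind a value is unknown, and a second library of either group was not analysed here.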
